A study of Mus musculus with 8 samples.

Results

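The cytosolic ribosomal protein genes were taken as every symbol in the feature lists that begins with Rpl or Rps followed by a digit, together with Rplp0, Rplp1, Rplp2 and Rpsa. Symbols with the pseudogene ending -ps and the Rps6k kinases were left out. The rule reads symbols only, so ribosomal protein genes with other names are not among the members. The rule gave 86 of the 32285 listed genes, 52 named for the large subunit and 34 for the small subunit, and the rule used no measured value. At least 1 UMI (unique molecular identifier, 1 captured mRNA molecule) was counted for 85 of them in the cells kept or the sections, and Rpl10l was at 0 in both. The data came from hearts of male wild-type C57BL/6J mice operated at 8 weeks of age, either sham-operated or with transverse aortic constriction (TAC), a ligature around the aortic arch that loads the left ventricle with pressure. Hearts were taken 2, 4 and 6 weeks after TAC (TAC-2w, TAC-4w, TAC-6w) and from sham mice, and every one of these conditions gave 1 spatial transcriptomics section and 1 single-cell library. No condition was repeated, so no difference between conditions was tested here, and every interval given for a share or a ratio between conditions covers counting error only. The labels place the sections of sham and TAC-2w in batch 1, the section of TAC-4w in batch 2 and that of TAC-6w in batch 3, and the libraries of TAC-2w in batch 1, of TAC-4w in batch 2 and of TAC-6w and sham in batch 3, so batch and condition cannot be told apart outside the pairs TAC-2w and sham (sections) and TAC-6w and sham (libraries).

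A cytosolic ribosome joins a small subunit, which reads the mRNA, to a large subunit, which forms the peptide bonds, and each subunit holds a fixed set of proteins around its ribosomal RNA. The genes of these proteins are among the most abundantly transcribed in every growing cell. Their mRNAs begin at a cytosine followed by a tract of pyrimidines, the 5′ terminal oligopyrimidine (TOP) motif, through which mTOR and the RNA-binding protein Larp1 control their translation as a group. Several members have a second gene copy that replaces them in some tissues: Rpl3l takes the place of Rpl3 in striated muscle, and Rps27l, a target of p53, is the paralog of Rps27. In the pressure-loaded heart, growth of cardiomyocytes goes with more protein synthesis, and resident and infiltrating cells add their own ribosomes to the tissue.

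The bases around the transcription start are shown for the members to which the results return, because the pyrimidine tract is the feature these genes are known to share. Each line spans 15 bases before and 15 bases from the start that RefSeq annotates (GRCm38.p6), so the first part lies in the promoter and the second opens the first exon. Capitals mark the longest run that opens with C and goes on with C or T for at least 5 bases in all, beginning within 10 bases of the start on the transcribed strand.
Rps9, chr7:3704026-3704055, plus strand: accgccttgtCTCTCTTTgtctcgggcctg
Rpl12, chr2:32961697-32961726, plus strand: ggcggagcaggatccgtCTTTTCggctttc
Rps27, chr3:90213634-90213663, minus strand: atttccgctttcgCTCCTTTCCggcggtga
Rps27l, chr9:66946071-66946100, plus strand: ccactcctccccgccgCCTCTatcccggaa
Rpl35, chr2:39005117-39005146, minus strand: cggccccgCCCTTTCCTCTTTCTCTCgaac
Rps28, chr17:33824548-33824577, minus strand: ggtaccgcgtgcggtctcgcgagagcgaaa
Rpl22l1, chr3:28805493-28805522, plus strand: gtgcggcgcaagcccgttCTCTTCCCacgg
Rpl3l, chr17:24727811-24727840, plus strand: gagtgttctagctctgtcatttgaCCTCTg
Rpl7l1, chr17:46782642-46782671, minus strand: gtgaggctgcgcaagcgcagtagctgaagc
Rps27l and Rpl3l have 2 listed starts each, and the start with the longer run is shown. For Rps27l the start shown lies downstream of the annotated beginning of the gene, at 66944624 on chromosome 9. The 1 start listed for Rps9 lies downstream of the annotated beginning of the gene, at 3703954 on chromosome 7. Of the 66 members with a listed window, 39 (59.1%) held such a run, against 8765 of 26959 other genes (32.5%). A gene with several listed starts was counted by its longest run. The run is a description of letters, and the shown windows of Rps28 and Rpl7l1 held none.

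The cells kept were 7965 from sham, 6293 from TAC-2w, 6531 from TAC-4w and 5399 from TAC-6w, with a median of 9131, 10717, 4449 and 4743 UMIs per cell. Clusters were built after all members had been removed from the matrix and were named from fixed markers, so that the names did not use the measure. All 18 clusters received a name, giving 14 types, each with at least 4 of its 6 markers detected. The dendritic cell-like cluster rests on the fewest, 4 of 6, with 1 of them (Cd209a) among its 10 leading genes, which also hold Mgl2 and Fcrls of the macrophage-like and Ccr2 and Ear2 of the monocyte-like leading genes. The libraries shared 9 to 30 cell barcodes pairwise, of which 8 to 19 were kept in both. The share of mitochondrial UMIs in the cells kept was 4.72%, 4.91% and 4.56% in sham, TAC-2w and TAC-4w and 2.75% in TAC-6w. The 4 sections held 1676, 2063, 1228 and 2193 spots over tissue from sham through to TAC-6w, each spot a small area that can hold several cells. The labels describe a nuclei preparation and the methods of the study describe dissociated cells; which of them was used was not settled here.

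B cell-like cells and T cell-like cells carried the largest ribosomal protein share, and neutrophil-like, platelet-like and red blood cell-like cells the smallest. In B cell-like cells the members took 32.8%, 31.7%, 32.0% and 43.7% of all UMIs in sham and then TAC-2w, TAC-4w and TAC-6w. T cell-like cells held 30.8%, 34.5%, 29.7% and 39.5% in the same order. B cell-like cells and T cell-like cells did not overlap with the other types in any of the 4 libraries. Dendritic cell-like cells held 21.9% to 30.1% and NK cell-like cells 19.4% to 28.5%. Fibroblast-like cells, which build the collagen matrix and were the most numerous, held 15.9%, 15.2%, 14.9% and 20.3%. Macrophage-like cells held 14.6%, 14.2%, 16.6% and 20.5%. Endothelial cell-like cells, which line the vessels, held 15.3%, 14.3%, 11.1% and 18.9%. In each library these 3 types lay between the lymphocytes and the neutrophil-like cells. Endothelial cell-like cells pool cluster 4 with cluster 12, led by Npr3, H19 and Cytl1. These clusters held 12.0% and 17.1% in sham and 11.2% and 17.8% in TAC-2w. Cardiomyocyte-like cells held 14.3%, 13.2% and 13.3% in sham, TAC-2w and TAC-4w (107, 75 and 23 cells), and 18.5% in the 11 cells of TAC-6w. Neutrophil-like cells, short-lived phagocytes, held 4.44%, 3.71%, 3.95% and 6.87%. They pool cluster 5 with cluster 13, led by Ngp, Camp and Ltf, and these held 4.03% and 3.85% in TAC-4w. Platelet-like cells, fragments without a nucleus, held 3.09% in sham and 1.56% in TAC-4w, and red blood cell-like cells 1.05%, 0.676% and 3.75% in sham, TAC-2w and TAC-4w. Median UMIs per cell also differed between types, from 899 in platelet-like to 12783 in dividing cell-like cells of sham, and did not follow the order of the share. B cell-like cells of sham, at the top of the share, had a median of 3058 UMIs and neutrophil-like cells, near the bottom, 2469.

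**Figure D1:**
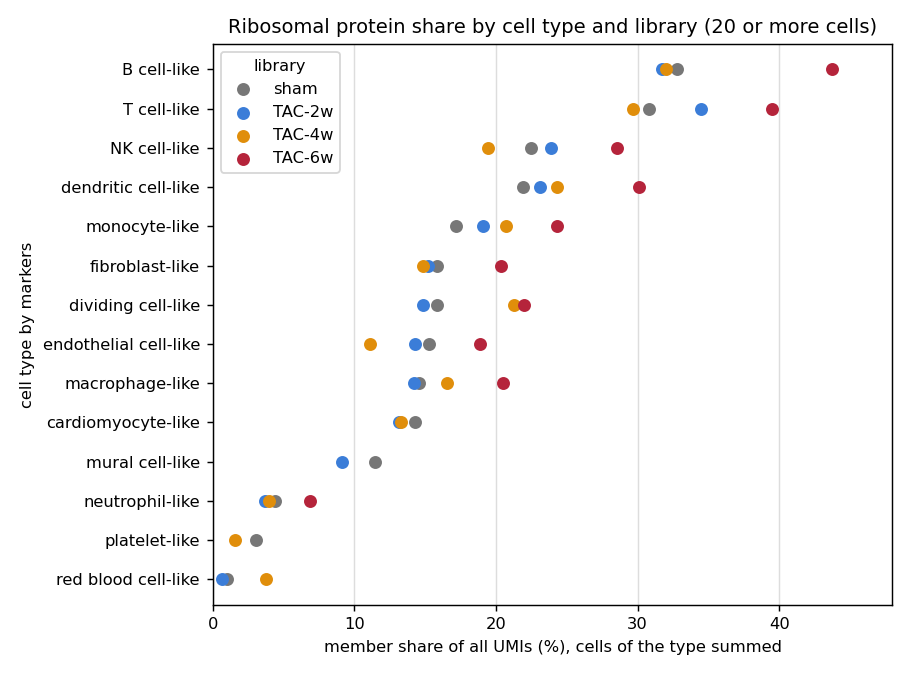
Share of all UMIs that fell on the 86 ribosomal protein genes (x axis, percent) in each cell type (y axis), 1 point per library with at least 20 cells, coloured by condition. B cell-like cells and T cell-like cells lie to the right of all other types in every library, neutrophil-like cells at 3.71% to 6.87%, and the TAC-6w points lie to the right of the sham points of the same type.

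The 4 libraries served as replicates of a type, and UMIs summed per library and type were compared with the mean of the other types by edgeR's quasi-likelihood test with the library as a block (11546 genes, 84 members tested, 12 types; called at a Benjamini-Hochberg adjusted p under 0.05). Rpl10l and Rpl39l had too few UMIs to be tested. The 4 libraries are 4 conditions, and all types of a library come from 1 preparation. Cardiomyocyte-like and red blood cell-like cells entered the fit with 3 libraries and the other types with 4. The p-values rest on a spread per gene that is pooled over the sums of all types and libraries, not on that of a single type. Each SE given beside a log2 fold change is that of DESeq2 for the same contrast. In B cell-like cells 80 members were higher and 1 lower, where 28.6% and 15% of all genes tested were called in these directions, and the members' median log2 fold change was 1.28 against 0.12 over all genes. In T cell-like cells 77 were higher and 1 lower (21.1% and 11.2% of all genes), with a median of 0.97. In dendritic cell-like cells 77 were higher and 0 lower (24.3% and 6.88% of all genes), with a median of 0.67, and the count fell to 40 without the sham library. Neutrophil-like cells went the other way, with 2 members higher and 78 lower (28.9% and 23.5% of all genes) and a median of −1.58. Endothelial cell-like cells pool clusters 4 and 12, not fitted apart, in different parts by library. In them 57 members were lower and 2 higher (15.9% and 35.1% of all genes), with a median of −0.59. That count was 32 without sham, 22 without TAC-2w, 39 without TAC-4w and 4 without TAC-6w. Without sham, the only one of these fits with the same types, the median was −0.58. A type needed 1 library fewer in these fits, so platelet-like sums joined the comparison without TAC-2w and without TAC-6w. Mural cell-like sums joined it without TAC-4w and without TAC-6w. The part of these added types in the counts was not tested. In red blood cell-like cells 34 were lower and 0 higher (6.56% and 6.18% of all genes), and the count was 75 without TAC-4w and 1 or 2 without any other library.

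The remaining types stood near the middle, and most of their members did not pass the test. Cardiomyocyte-like cells had 11 members higher and 1 lower (20.3% and 27.4% of all genes), NK cell-like cells 11 and 2 (18.6% and 11.9%), and monocyte-like cells 7 and 1 (19.4% and 8.77%). Fibroblast-like cells had 4 higher and 12 lower (41.1% and 15.7%), dividing cell-like cells 3 and 4 (30.7% and 5.09%), and macrophage-like cells 4 and 2 (28.6% and 8.89%). Several of these counts moved when a library was left out, which also changed the types compared, except in the fit without sham. Leaving out the libraries in turn, from sham to TAC-6w, the members higher were 0, 21, 51 and 37 in NK cell-like cells. They were 5, 6, 23 and 7 in cardiomyocyte-like cells, and the members lower were 3, 1, 8 and 1 in fibroblast-like cells. With relative log size factors in place of TMM, the split of higher and lower was 5 and 33 in fibroblast-like, 3 and 19 in dividing cell-like, 5 and 10 in macrophage-like, 9 and 4 in monocyte-like and 1 and 7 in red blood cell-like cells, which turned the balance of calls in macrophage-like cells. That scaling moved the median log2 fold change of all genes by more than 0.1 in 7 types, for example from −0.42 to −0.08 in red blood cell-like cells, from −0.71 to −0.51 in cardiomyocyte-like cells and from 0.16 to −0.03 in dendritic cell-like cells.

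Some members left the common pattern. Apart from Rpl3l, too sparse in most types for this comparison, the member with the widest range was Rps27l, whose product can take the place of Rps27 in the small subunit. Its level was 56.4, 64.2, 40.0 and 52.5 CPM (UMIs scaled to a common total per sum of cells) in B cell-like cells of sham and then TAC-2w, TAC-4w and TAC-6w, against 340, 368, 358 and 350 CPM in cardiomyocyte-like cells. The values of the types do not overlap. Rps27l was the 1 member lower in B cell-like cells (log2 fold change −1.50, SE 0.16, adjusted p = 1.1e-08 by edgeR) and in T cell-like cells (−0.80, SE 0.16), where nearly all others were higher. It was higher in cardiomyocyte-like (1.58, SE 0.17), dendritic cell-like (1.53, SE 0.14), dividing cell-like (0.91, SE 0.14), fibroblast-like (0.85, SE 0.13), macrophage-like (0.78, SE 0.13) and endothelial cell-like cells (0.50, SE 0.13). Its paralog Rps27 followed the lymphocyte pattern, with 8219, 7531, 8860 and 18727 CPM in B cell-like cells against 1920, 1904, 2269 and 4267 CPM in fibroblast-like cells. The fitted change of Rps27 was 1.96 (SE 0.15) in B cell-like and −0.66 (SE 0.15) in fibroblast-like cells. Rps27rt, a retrogene copy of Rps27 whose reads may be shared with it, was 2.00 (SE 0.10) in B cell-like, −0.99 (SE 0.10) in fibroblast-like and −0.99 (SE 0.12) in dividing cell-like cells.

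Neutrophil-like cells, in which 78 members were lower, held 1 ubiquitous small subunit member at a high level. Rps9, a protein of the small subunit that helps to set decoding accuracy, stood at 2753, 2830, 2578 and 3138 CPM in neutrophil-like cells and at 2333, 2296, 2128 and 2461 CPM in fibroblast-like cells. It was the only member besides Rpl3l that edgeR called higher there (0.66, SE 0.14, adjusted p = 0.0075). Rpl12, a large subunit protein near the site where elongation factors bind, was among the lowest members there. Its level was 201, 90.6, 137 and 334 CPM in neutrophil-like cells and 4715, 5612, 4512 and 6011 CPM in T cell-like cells. The fitted log2 fold changes of Rpl12 were −2.73 (SE 0.20) in neutrophil-like, 1.76 (SE 0.19) in T cell-like and 1.96 (SE 0.19) in B cell-like cells. Rpl10a, another large subunit protein, fell by 2.75 on the log2 scale in neutrophil-like cells (SE 0.17). Rps2, which lies at the mRNA entrance, was at 288, 282, 259 and 431 CPM in neutrophil-like and at 3800, 3592, 3472 and 3628 CPM in cardiomyocyte-like cells. Rpl37, Rps27, Rps27a and Rps27rt were the 4 members not called in neutrophil-like cells.

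Expressed per 1000 member UMIs, so that the overall level of a type is taken out, the median member varied 1.97-fold between its highest and lowest type (83 members). The range was 2-fold or more in 40 members and under 1.5-fold in 17. Rps27l had 2.70 per 1000 in cardiomyocyte-like and 0.148 in B cell-like cells, an 18.2-fold range. Rps9 had 63.6 in neutrophil-like and 11.0 in red blood cell-like cells (5.80-fold). Rps2 followed with a 4.08-fold range and Rps27a, made as a fusion with ubiquitin, with 3.84-fold, then Rpl12 with 3.81-fold. Rpl7l1, a paralog of Rpl7 that works in nucleolar assembly, had a 3.32-fold range. Rpl3 had a 3.24-fold range, Rpl41, the smallest member, 3.10-fold, and Rps27 2.99-fold. Neutrophil-like cells were the highest or the lowest type for 6 of the 10 members with the widest range. The small subunit had 0.804 UMIs per large subunit UMI in fibroblast-like cells of sham, 0.861 in B cell-like and 0.894 in neutrophil-like cells, and 0.708 in platelet-like cells.

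**Figure D2:**
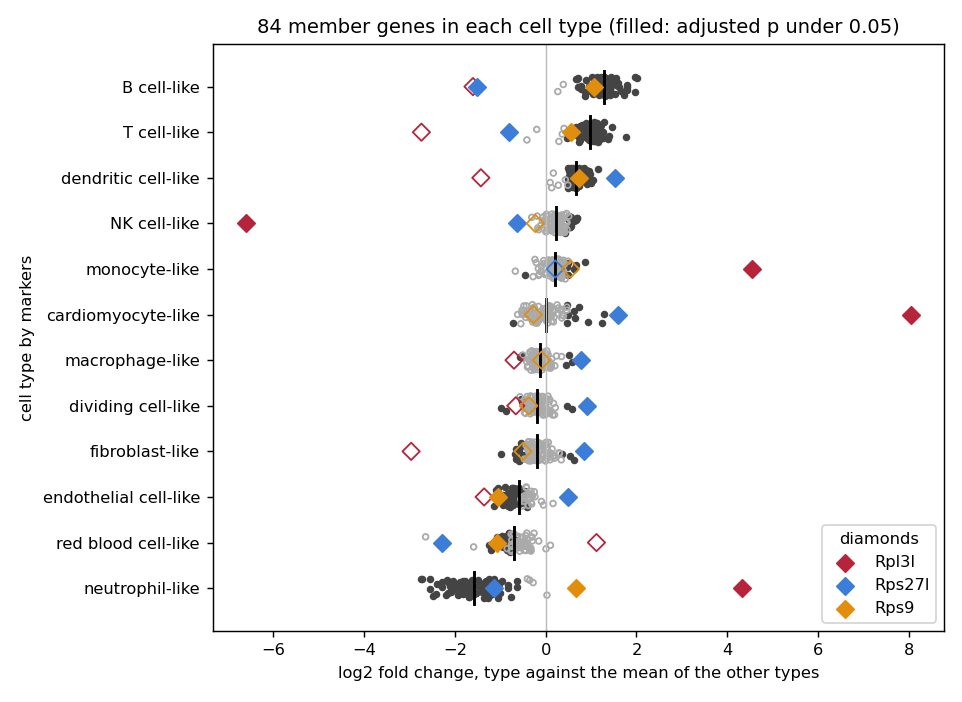
Log2 fold change of each of the 84 tested members in 12 cell types against the mean of the other types (x axis), filled where the adjusted p was under 0.05, with black bars for the members' median and diamonds for Rpl3l, Rps27l and Rps9. The members' median moves from −1.58 in neutrophil-like to 1.28 in B cell-like cells, while Rps27l stands to the left of the members in B cell-like cells and T cell-like cells and Rps9 to the right in neutrophil-like cells.

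Single members also marked the other types. In cardiomyocyte-like cells the highest of the called members were Rpl3l and Rps27l, and Rps2 (1.29, SE 0.11) was higher too, while Rps16 was lower (−0.72, SE 0.13) and Rps15 higher by 0.47 (SE 0.09). In T cell-like cells Rpl13a, which can leave the ribosome to silence inflammatory mRNAs, rose by 1.46 (SE 0.15), and Rpl28 by 0.48 (SE 0.10). In dendritic cell-like cells Rpl7l1 rose by 0.49 (SE 0.15), the smallest change among the members called there. In B cell-like cells Rplp0, the base of the ribosomal stalk, rose least (0.67, SE 0.13). Endothelial cell-like cells had Rpsa (−1.14, SE 0.14) and Rpl39 (−1.10, SE 0.11) lowest, against Rpl7l1 at 0.47 (SE 0.12). Rpl22l1, the paralog of Rpl22, was higher in fibroblast-like (0.63, SE 0.15) and lower in macrophage-like cells (−0.56, SE 0.15), where Rplp0 was lower as well (−0.52, SE 0.13) and Rps19bp1, a nucleolar binding partner of Rps19 that the rule takes in by its symbol, was higher (0.57, SE 0.15). Rpl27 fell by 0.69 in fibroblast-like cells (SE 0.11) and rose by 0.70 in NK cell-like cells (SE 0.12), as did Rps15a there (0.68, SE 0.13). In monocyte-like cells Rpl36al rose by 0.88 (SE 0.10) and Rpl34 by 0.47 (SE 0.11), and Rplp1 fell by 0.46 (SE 0.09). In dividing cell-like cells Rps27 fell by 0.88 (SE 0.15) and Rpl7l1 rose by 0.59 (SE 0.13). In red blood cell-like cells Rps27l fell by 2.28 (SE 0.50) and Rpl36al by 1.25 (SE 0.21), and Rps14 and Rpl29 fell least, by 0.69 (SE 0.12) and 0.67 (SE 0.15).

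Other genes of the translation machinery were counted in the same fit. Of all genes tested, 28.6% were called higher in B cell-like, 21.1% in T cell-like and 24.3% in dendritic cell-like cells. The share called higher in cardiomyocyte-like cells was 20.3%, and the share called lower in neutrophil-like cells 23.5%. Of 16 translation factors with TOP mRNAs, 13 were higher in B cell-like and in T cell-like cells, 15 in dendritic cell-like cells, and 15 were lower in neutrophil-like cells. The TOP-containing host genes of small nucleolar RNAs were higher in B cell-like cells in 8 of 8 cases. Of 27 tested genes of ribosome biogenesis, 18 were higher in B cell-like cells and 20 lower in neutrophil-like cells. The proteins of the mitochondrial ribosome, which translates the messages of the mitochondrial genome, stood apart: 74 of 77 were higher in cardiomyocyte-like cells, where 11 of 84 cytosolic members were, and 59 of 77 were lower in neutrophil-like cells.

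In the heart sections the ribosomal protein share was higher in each TAC section than in the sham section. The members took 2.58% of all UMIs in sham, 4.01% in TAC-2w, 4.41% in TAC-4w and 3.50% in TAC-6w. The share in TAC-2w, the section of the same batch, was 1.56 times that of sham, and it was 1.71 times in TAC-4w and 1.36 times in TAC-6w. The middle spread over spots, from the lower to the upper quartile, was 2.27% to 2.70% in sham, 3.74% to 4.21% in TAC-2w, 4.02% to 4.72% in TAC-4w and 3.16% to 3.72% in TAC-6w, so the sham range lay below all others. Mitochondrial transcripts made up 51.5% of the UMIs in sham and 43.4%, 42.2% and 44.2% in the TAC sections, and when these and the rRNA-like features were removed from the denominator the ratios came to 1.33, 1.43 and 1.18. The tenth of spots with the most cardiomyocyte marker UMIs held 2.76%, 4.02%, 4.69% and 3.70% in sham and then TAC-2w, TAC-4w and TAC-6w, while the tenth with the most fibroblast marker UMIs held 3.05%, 4.42%, 5.09% and 3.95%. In both kinds of spot the order of the sections was that of the whole section.

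Marker lists of several cell types moved between the sections, in TAC-2w as well as later. The 6 red blood cell markers summed to 10500, 13740, 3942 and 7616 CPM in sham and then TAC-2w, TAC-4w and TAC-6w. In the same order the 6 neutrophil markers summed to 29.85, 6.01, 88.9 and 15.9 CPM and the 6 endothelial cell markers to 1222, 1168, 1608 and 2126 CPM. The 6 dividing cell markers summed to 7.16 CPM in sham and 28.5 CPM in TAC-6w. The 6 fibroblast markers summed to 656, 658, 859 and 1050 CPM, the 6 macrophage markers to 211, 191, 407 and 307 CPM, and the 6 cardiomyocyte markers to 31690, 34190, 25050 and 31090 CPM in sham and then TAC-2w, TAC-4w and TAC-6w. In TAC-2w, where the members' share was 1.56 times that of sham, 3 of 6 fibroblast markers and 0 of 6 macrophage markers were above sham. In TAC-4w 3 and 6 and in TAC-6w 6 and 6 of these markers were above sham. Of the 6 cardiomyocyte markers, 5 were above sham in TAC-2w, 1 in TAC-4w and 1 in TAC-6w. All these marker CPM are on the total that includes mitochondrial UMIs, whose share was highest in sham. No defining marker of any list was at 0 over the 4 sections. The part of cell composition in the members' share was not tested in any TAC section, TAC-2w included. In a spot fewer cells of a type and less RNA per cell cannot be told apart.

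Of 84 members with at least 200 UMIs in the pair of sections, 84 had a ratio above 1 in TAC-2w, 83 in TAC-4w and 83 in TAC-6w, where 57.5%, 77.1% and 87.8% of all genes did. The members' median ratio was 1.53, 1.68 and 1.35, where the median over all genes was 1.04, 1.16 and 1.23. In TAC-2w 51 members were at least 1.5-fold higher (4.24% of all genes were), in TAC-4w 71 (12.8% of all genes) and in TAC-6w 7 (14% of all genes). The count in TAC-6w, 7 of 84, is therefore below the background. Relative to their own median, 0 members in TAC-2w, 1 in TAC-4w and 1 in TAC-6w were past 1.5-fold, where 5.91%, 10.7% and 6.58% of all genes were past that fold of the median of all genes. The 1 member was Rpl3l in both.

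Rpl3l and Rpl3 changed places over the sections. Rpl3l, the striated muscle form of the large subunit protein that shapes the peptidyl transferase centre, had 147 CPM in sham, 164 in TAC-2w, 125 in TAC-4w and 123 in TAC-6w. Rpl3, the form of other tissues, had 85.7, 101, 181 and 141 CPM. The ratio to sham was 1.12, 0.854 and 0.839 for Rpl3l and 1.17, 2.11 and 1.65 for Rpl3. On a total without mitochondrial and rRNA-like UMIs, a denominator added after seeing the data, it was 0.958, 0.714 and 0.728 for Rpl3l and 1.00, 1.76 and 1.43 for Rpl3. Rpl3l was thus lower and Rpl3 higher than in sham in TAC-4w and TAC-6w on both totals, while the directions in TAC-2w did not hold on the second. There were 1.71 Rpl3l UMIs per Rpl3 UMI in sham (95% interval 1.62 to 1.80), 1.63 in TAC-2w (1.57 to 1.69), 0.692 in TAC-4w (0.665 to 0.721) and 0.872 in TAC-6w (0.842 to 0.903). The intervals of TAC-4w and TAC-6w lie below those of sham and TAC-2w. Sham and TAC-2w share a batch, and TAC-4w and TAC-6w each lie in another, so batch and condition cannot be told apart here. UMIs count molecules and were not divided by length. In the tenth of spots with the largest share of fibroblast marker UMIs the ratio was 1.12, 1.06, 0.477 and 0.594. In the tenth with the largest share of cardiomyocyte marker UMIs it was 2.21, 1.71, 0.757 and 1.05. The ratio in TAC-4w and TAC-6w was lower than in sham in both kinds of spot. Averaged over spots with an Rpl3 UMI instead of summed, the ratio was 1.66 in sham, 2.05 in TAC-2w, 0.927 in TAC-4w and 1.03 in TAC-6w. By this measure TAC-2w stood above sham, and TAC-6w lay on the other side of 1. The TAC-4w and TAC-6w sections also held more fibroblast and macrophage marker UMIs. Cardiomyocyte markers summed to 31690 CPM in sham, 25050 in TAC-4w and 31090 in TAC-6w. The part of these markers in the ratio was not tested. In the libraries, cardiomyocyte-like cells went the other way. They had 0.507 Rpl3l UMIs per 100 cardiomyocyte marker UMIs in sham, 0.768 in TAC-4w and 0.871 in TAC-6w (107, 23 and 11 cells).

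**Figure D3:**
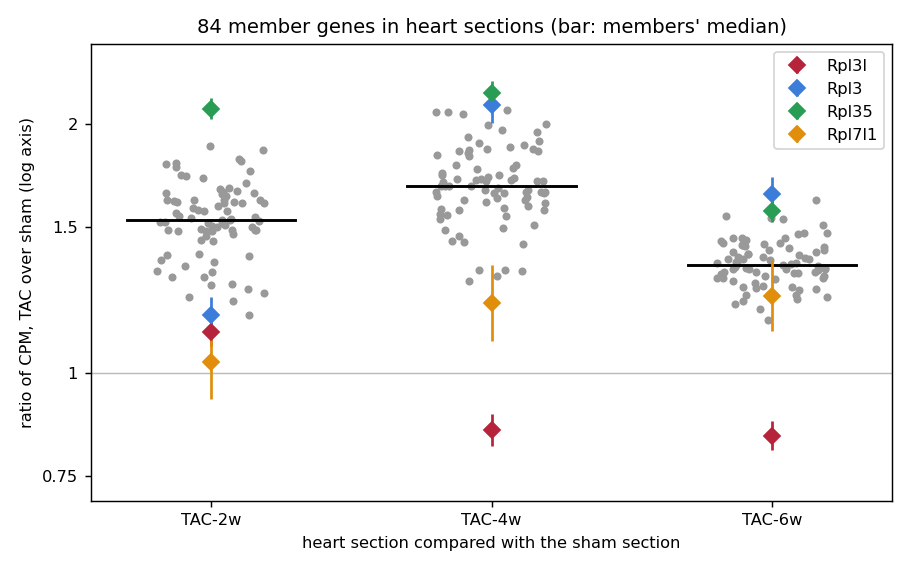
Ratio of CPM in each TAC section to the sham section (y axis, log scale) for the 84 counted members, with a bar for the members' median and diamonds with 95% counting intervals for Rpl3l, Rpl3, Rpl35 and Rpl7l1. The median stands at 1.53, 1.68 and 1.35, and Rpl3l lies under 1 in TAC-4w and TAC-6w, at 0.854 and 0.839.

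At the other end, Rpl35, which sits at the exit of the peptide tunnel, had 205 CPM in sham and 428, 447 and 322 CPM in the TAC sections, ratios of 2.09, 2.18 and 1.57. It was the highest member in TAC-2w and TAC-4w. Beside it the 4 highest in TAC-2w held Rps2 (1.88), Rpl39 (1.86) and Rps18 (1.81), in TAC-4w Rpl3, Rps18 (2.08) and Rps24 (2.07), and in TAC-6w Rpl3, Rps27l (1.62) and Rps18 (1.55). The 4 lowest in TAC-2w were Rpl7l1 (1.03), Rpl3l, Rpl3 and Rps19bp1 (1.18), in TAC-4w Rpl3l, Rpl7l1 (1.22), Rpl31 (1.29) and Rpl36al (1.31), and in TAC-6w Rpl3l, Rps27rt (1.16), Rpl7a (1.20) and Rpl36al (1.21). Relative to the members' median, Rpl7l1 was at 0.672 and Rpl35 at 1.36 in TAC-2w, both inside the 1.5-fold limit, and the counting interval of the ratio of Rpl7l1 to sham in TAC-2w included 1. The small subunit had 0.730, 0.758, 0.767 and 0.737 UMIs per large subunit UMI in the 4 sections.

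The other paralog pairs kept their order over the sections. Rpl7l1 had 22.3, 23.0, 27.1 and 27.7 CPM in the sections and its partner Rpl7 227, 305, 352 and 286 CPM. Rpl22l1 had 49.1, 88.1, 80.3 and 66.6 CPM and Rpl22, which binds structured RNA, 173, 298, 329 and 261 CPM. Rpl7 and Rpl22 stayed the more abundant gene of their pair in all 4 sections. Rpl36al had 123, 178, 161 and 149 CPM and Rpl36a 158, 237, 279 and 218 CPM. Rps27l had 86.0, 133, 128 and 139 CPM and Rps27 516, 891, 1065 and 688 CPM. Rpl39l, known from the testis, had 0.423, 0.390, 0.282 and 0.269 CPM, that is 11, 19, 9 and 13 UMIs, beside 312, 580, 623 and 481 CPM for Rpl39. Rpl10 had 166, 288, 327 and 237 CPM and Rps4x 281, 360, 435 and 365 CPM, and Rpl10l, the testis form of Rpl10, had 0 UMIs in the sections, with an upper limit of 0.142 CPM in sham.

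Other genes of translation were read against all genes, whose median ratio was 1.04, 1.16 and 1.23 and of which 4.24%, 12.8% and 14% were at least 1.5-fold higher in the 3 TAC sections. The host genes of small nucleolar RNAs had a median ratio of 1.43, 1.80 and 1.42. Translation factors with TOP mRNAs had a median ratio of 1.20, 1.44 and 1.24, with 2, 7 and 1 of 16 at least 1.5-fold higher. Mitochondrial ribosomal proteins had a median of 1.33, 1.12 and 1.24, with 12, 5 and 3 of 78 past that fold, and ribosome biogenesis genes 1.03, 1.30 and 1.29, with 0, 3 and 5 of 28. The biogenesis genes in TAC-2w, the mitochondrial ribosomal proteins in TAC-4w and TAC-6w and the translation factors in TAC-6w thus stood near the median of all genes.

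Of the 535 Rpl3l UMIs in the cells kept, 232 lay in cardiomyocyte-like, 106 in neutrophil-like and 64 in monocyte-like cells. Its level per UMI was highest in cardiomyocyte-like cells, with 98, 64, 56 and 14 UMIs in sham and then TAC-2w, TAC-4w and TAC-6w, or 243, 188, 489 and 445 CPM. It was seen in 41 of 107, 22 of 75, 14 of 23 and 6 of 11 of these cells, and edgeR called it higher (8.05, SE 0.70, adjusted p = 5.5e-22). The TAC-4w and TAC-6w values rest on few cells. Myl7, the atrial myosin light chain, went from 14292 and 14419 CPM in sham and TAC-2w to 1797 and 31.8 CPM in TAC-4w and TAC-6w, and whether the libraries held the same heart chambers was not tested. A second, lower level of Rpl3l stood in monocyte-like cells, with 15, 14, 22 and 13 UMIs or 59.9, 35.1, 11.0 and 133 CPM (fitted change 4.55, SE 0.64). Neutrophil-like cells had 9, 3, 80 and 14 UMIs or 20.6, 10.1, 12.9 and 31.8 CPM (4.32, SE 0.64). In fibroblast-like cells, which should lack the gene, Rpl3l had 0.452, 0.410, 0 and 0.211 CPM, and in macrophage-like cells 1.46, 1.96, 0 and 0.842 CPM. NK cell-like cells had 0 UMIs in all 4 libraries.

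Rpl3l was also counted beside 6 cardiomyocyte markers (Myh6, Tnnt2, Actc1, Tnni3, Myl2, Ryr2). Per 100 UMIs of these markers, cardiomyocyte-like cells had 0.507, 0.448, 0.768 and 0.871 Rpl3l UMIs in the 4 libraries, and fibroblast-like cells 0.491, 0.373, 0 and 0.698. Monocyte-like cells had 26.3, 18.7 and 62.9 in sham, TAC-2w and TAC-4w, and in TAC-6w 13 Rpl3l UMIs beside 0 marker UMIs. Neutrophil-like cells had 6.57, 4.11, 45.7 and 127. The part of free RNA in these values was not tested. In TAC-4w 69 of 1261 neutrophil-like cells (5.47%) and 19 of 216 monocyte-like cells (8.80%) held a UMI of Rpl3l, against 0 of 431 fibroblast-like cells, where 3 counts, the limit taken for a count of 0, would be a share of cells with a UMI of 0.696%, at median depths of 3437, 9995 and 13948 UMIs. Whether reads of a neighbouring or overlapping gene were counted as Rpl3l in myeloid cells was not tested.

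**Figure D4:**
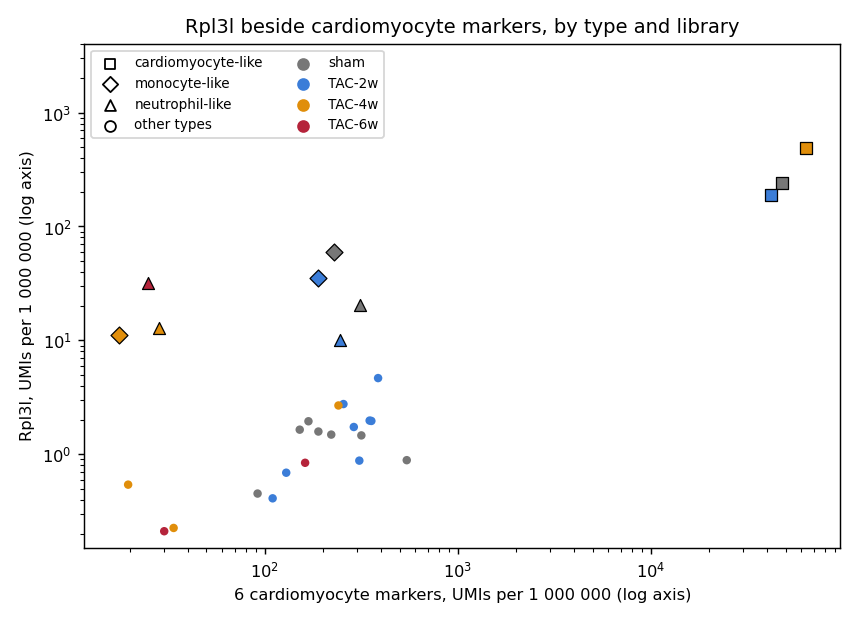
CPM of Rpl3l (y axis, log scale) against the summed CPM of 6 cardiomyocyte markers (x axis, log scale), 1 point per cell type and library with at least 20 cells and at least 1 UMI of each; squares are cardiomyocyte-like, diamonds monocyte-like and triangles neutrophil-like cells. Monocyte-like and neutrophil-like points lie above the other types at the same marker level, for example at 59.9 and 20.6 CPM of Rpl3l in sham.

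In types with at least 20 cells, the ribosomal protein share moved by cell type in TAC-2w and TAC-4w and in 1 direction in TAC-6w. In TAC-2w 4 of 13 types with at least 20 cells in both libraries were higher than in sham (T cell-like, monocyte-like, NK cell-like and dendritic cell-like), with ratios from 0.644 in red blood cell-like to 1.12 in T cell-like cells. Fibroblast-like cells had a ratio of 0.961 and macrophage-like cells of 0.975. In TAC-4w 5 of 13 were higher, among them monocyte-like (1.21) and dividing cell-like cells (1.34), while endothelial cell-like cells had a ratio of 0.728. Of the latter, 468 of 478 lay in cluster 4 in TAC-4w and 300 of 494 in sham, and within cluster 4 the share was 11.0% and 12.0%. For dividing cell-like cells the ratio of 1.34 comes from summed UMIs. Their median share per cell was 17.4% in TAC-4w and 15.1% in sham. Among cells of 2000 to 4000 UMIs the count in TAC-4w was 1 of 6 types, and the ratio of macrophage-like cells was 0.866, from 28 cells in TAC-4w. Among those of 4000 to 8000 UMIs macrophage-like cells held 16.7% in TAC-4w (88 cells) and 15.4% in sham (806 cells). In TAC-6w, whose library shares its batch with sham, the share was higher in 10 of 10 types, from 1.23 in endothelial cell-like to 1.55 in neutrophil-like cells. Fibroblast-like cells had a ratio of 1.28, macrophage-like cells of 1.41 and B cell-like cells of 1.33. Of the types with fewer cells in TAC-6w, cardiomyocyte-like (1.30, 11 cells) and mural cell-like cells (1.05, 19 cells) were higher than in sham. Platelet-like (0.651, 13 cells) and red blood cell-like cells (0.530, 2 cells) were lower.

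Depth and mitochondrial share differ between the TAC-6w and sham libraries, and the difference was read within classes of both. Among cells of 2000 to 4000 UMIs the TAC-6w share was higher in 7 of 7 types, with 21.4% against 17.0% in fibroblast-like, 21.3% against 12.4% in macrophage-like and 45.8% against 33.6% in B cell-like cells. Among cells of 4000 to 8000 UMIs it was higher in 3 of 3 types. Among cells with a mitochondrial share under 3% it was 20.5% against 16.2% in fibroblast-like and 21.5% against 15.8% in macrophage-like cells, and from 3% to 6% it was 20.1% against 15.9%, 20.4% against 15.2% and, in B cell-like cells, 43.8% against 34.9%. From 6% to 15% the sign differed between types, with 16.8% against 13.7% in macrophage-like cells, but 9.43% against 14.5% in fibroblast-like (76 and 299 cells) and 25.1% against 32.2% in B cell-like cells (79 and 178 cells). Fibroblast-like cells of sham lay mostly in cluster 1 (2439 of 4486 cells) and those of TAC-6w in cluster 0 (2089 of 2874), and within cluster 0 the share was 15.4% and 20.2% and within cluster 1 it was 16.3% and 20.8%. Within endothelial cluster 4 it was 12.0% and 18.0%, and within endothelial cluster 12 it was 17.1% and 23.6%. Cluster 12 held 194 of 494 endothelial cell-like cells in sham and 24 of 200 in TAC-6w. The pooled ratio of 1.23 takes in this change of mix.

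Single members were then set against the members' own median ratio in each library. Counted as past 1.5-fold of the members' own median ratio, 12 of 83 members left the pattern in fibroblast-like, 11 of 83 in macrophage-like and 9 of 80 in B cell-like cells, where 17.1%, 14.4% and 19.3% of all genes were past that fold of the median of all genes. In TAC-2w the count was 0 in all 3 types (2.15%, 0.956% and 2.14% of all genes), and in TAC-4w it was 0, 1 and 0 (15.1%, 17.5% and 12.7%). The counts in TAC-6w are near or below the background, so their number is not particular to the members. By name, Rps28 was 2.11 to 2.43 times the members' median ratio in 10 of 10 types, Rpl35 1.92 to 2.38 times and Rps29 1.74 to 2.15 times. Rps27, Rpl38, Rps21, Rpl37a, Rpl37 and Rpl36 passed the fold in 6 to 9 of the 10 types. These 9 were picked on these values, how often other genes repeat over types was not counted, and all types of TAC-6w come from 1 library, so the types are not independent.

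Rps28, a short protein of the small subunit head, had 1513, 1492, 1486 and 3960 CPM in fibroblast-like cells and 1602, 1555, 1855 and 4648 CPM in macrophage-like cells of sham and then TAC-2w, TAC-4w and TAC-6w. Rps29, a zinc-binding neighbour in the small subunit, had 2915, 2895, 2945 and 6534 CPM in fibroblast-like cells and 6620, 6620, 7371 and 17264 CPM in B cell-like cells. Rpl35 had 804, 910, 1092 and 2060 CPM in fibroblast-like cells and 1740, 1956, 2195 and 4085 CPM in B cell-like cells. For Rps28 and Rps29 the values of sham, TAC-2w and TAC-4w lie together and TAC-6w stands alone, while Rpl35 was already above sham in TAC-2w and TAC-4w. Together the 9 members took 1.57% of UMIs in fibroblast-like cells of sham and 3.48% in TAC-6w, a ratio of 2.21, against 1.18 for all other members, a gap that the choice of the 9 on this comparison fixes. The ratios were 2.33 and 1.27 in macrophage-like and 2.22 and 1.21 in B cell-like cells. In TAC-2w and TAC-4w the 9 had ratios of 0.983 to 1.20 in these 3 types. In the section of TAC-6w the 9 had a ratio of 1.37 and the other members of 1.36. The sections of TAC-2w and TAC-4w had ratios of 1.72 and 1.86 for the 9 and of 1.52 and 1.68 for the other members.

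**Figure D5:**
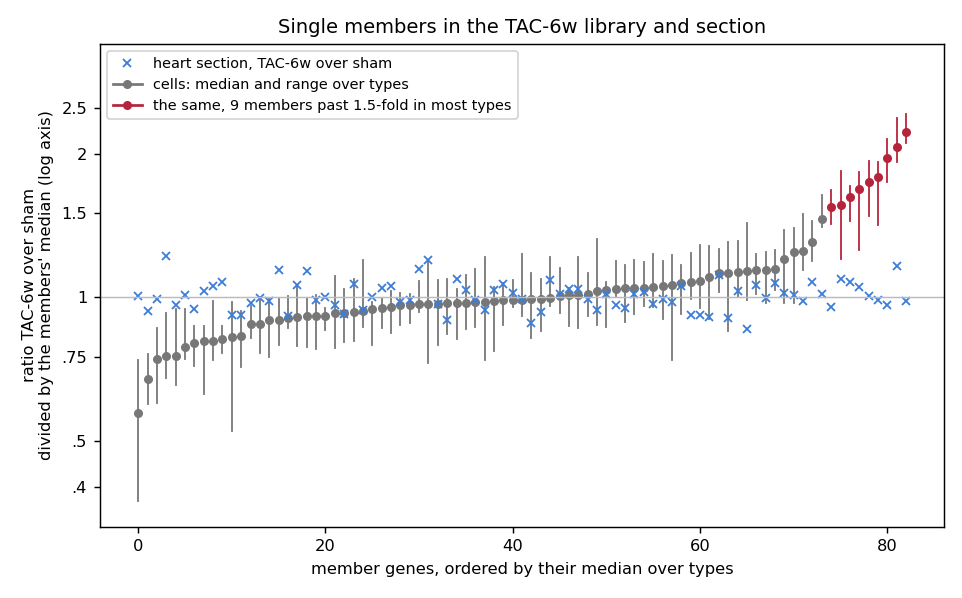
Ratio of each member in TAC-6w to sham, divided by the members' median ratio (y axis, log scale), for members ordered along the x axis; points and lines give the median and range over the cell types, crosses the same ratio in the heart sections, and red marks the 9 members past 1.5-fold in most types. Rps28, Rpl35 and Rps29 end the list at the right, with medians of 2.22, 2.07 and 1.96, while their crosses lie at 0.980, 1.16 and 0.964.

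At the low end in TAC-6w stood Rpl22l1, under the fold in 7 of 8 types, with 730 CPM in fibroblast-like cells of sham against 504 CPM in TAC-6w and 802 against 509 CPM in B cell-like cells. Rpl7 had a median of 0.674 of the members' ratio, under the fold in 4 of 10 types, with 1725 CPM in fibroblast-like cells of sham and 1445 in TAC-6w. The 3 lowest members were Rpl22l1, Rps4x and Rpl7 in fibroblast-like cells (0.557, 0.655 and 0.675 of the median), Rpl7l1, Rpl22l1 and Rpl7 in macrophage-like cells (0.523, 0.635 and 0.724) and Rpl22l1, Rpl3 and Rpl4 in B cell-like cells (0.523, 0.724 and 0.756). In the section the ratio of Rpl22l1 to the members' median was 1.01. In TAC-2w the lowest member was Rps27rt in all 3 types, at 0.724, 0.741 and 0.766, and the highest were Rpl35 and Rpl10, at 1.14 to 1.20. In TAC-4w Rps27rt (0.710, 0.715 and 0.694) and Rpl35 (1.47, 1.34 and 1.31) again stood at or next to the ends, and Rps27l was the lowest in macrophage-like cells (0.662).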

How the data were processed

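Single-cell libraries and spatial sections of 4 conditions were analysed from UMI counts per gene and barcode or spot, which the authors deposited as filtered count matrices. The processing notes name Cell Ranger 7.0.0, Space Ranger 1.3.1 and mm10, and the file headers other releases. Cells with 200 to 6000 genes, 500 to 30000 UMIs and under 15% mitochondrial UMIs were kept, and the 3.2% with the highest Scrublet scores dropped. Clusters came from Seurat 5.3.0 (R 4.3.3) without the member genes, and were named by the fold of fixed markers over the median cluster, a naming rule set after the clusters were seen. Members and gene lists were chosen with earlier results of these data known. Shares carry exact Clopper-Pearson intervals, and ratios exact conditional binomial intervals (95%), for counting error only. With 1 sample per condition no condition was tested. Types were tested on summed counts (at least 20 cells, 3 libraries) by edgeR 4.0.16, quasi-likelihood with a library block and TMM, with DESeq2 1.42.0 as an alternative, at a Benjamini-Hochberg adjusted p under 0.05, after the code was tested on simulated data. Ratios between conditions needed at least 200 UMIs in the pair. Named members were, by rule, the most extreme called members of each type, the 4 lowest and highest of each section, the 3 lowest and highest of the 3 main types, the 10 with the widest range over types, and the paralogs. Total counts kept per library were 26924592 to 73149357 UMIs. Some members that this rule names are not reported here.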

Additional observations from a re-analysis of the deposited data

Results flagged for a closer look

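The share of the ribosomal protein genes moved in opposite directions in different cell types of the same library, and these differences between types were not tested. In TAC-2w the ratio to sham was 1.12 in T cell-like cells and 0.644 in red blood cell-like cells. In TAC-4w it was 3.57 in red blood cell-like and 0.504 in platelet-like cells. The value of 3.57 comes from summed UMIs, while the median share per red blood cell-like cell was 0.454% in TAC-4w and 0.523% in sham, so a minority of cells carried the sum. In platelet-like cells of sham 9 of 53 cells, those with a mitochondrial share of 3% to 6%, held 7.04%, while at 6% to 15% the share was 1.88% in sham and 1.62% in TAC-4w (42 and 429 cells). These 4 ratios rest on 31 to 552 cells in the TAC library.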

How the results depend on the processing

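The section ratios of the members' share for TAC-2w, TAC-4w and TAC-6w kept their direction: 1.33, 1.43 and 1.18 without mitochondrial and rRNA-like features, 1.57, 1.75 and 1.38 as means over spots, 1.54, 1.68 and 1.28 in spots of 20000 to 30000 UMIs, and in TAC-4w 1.69 with all 6 neighbours and 1.72 with the core list, in TAC-6w 1.34 with all 6 neighbours. Rpl3l per Rpl3 averaged over spots was 1.66 in sham and 2.05, 0.927 and 1.03 in the TAC sections. TAC-2w was then above sham, and the last value lay on the other side of 1. In spots of 20000 to 30000 UMIs this mean was 2.05 in sham and 2.08 in TAC-2w. Depth classes were added after seeing the data, as were the fit without red blood cell-like sums and the fibroblast clusters. At 2000 to 4000 UMIs 2 of 6 types were higher in TAC-2w and 1 of 6 in TAC-4w, and at 4000 to 8000 UMIs 3 of 7 in TAC-4w and 3 of 3 in TAC-6w. Single types crossed 1 in B cell-like cells of TAC-2w (1.00 without filters, 1.02 at 4000 to 8000 UMIs) and TAC-4w (1.04 at 4000 to 8000 UMIs) and in macrophage-like cells at 2000 to 4000 UMIs (1.03 in TAC-2w, 0.866 in TAC-4w). Counts of called members moved with relative log size factors to 28 (cardiomyocyte-like, higher), 19 (dividing, lower), 33 (fibroblast-like, lower) and 7 (red blood cell-like, lower), and with DESeq2 to 33, 38, 41 and 8, and to 14 in monocyte-like and 24 in NK cell-like cells (higher). DESeq2's splits of higher and lower were 3 and 38 in dividing, 7 and 41 in fibroblast-like, 5 and 27 in macrophage-like, 14 and 6 in monocyte-like and 1 and 8 in red blood cell-like cells. Without a filter on low counts they were 5 in cardiomyocyte-like, 2 in dividing and 4 in monocyte-like cells. Without the library block they were 6, 1 and 4 in these types, 36 in endothelial, 4 in fibroblast-like and 4 in NK cell-like cells. With at least 50 cells per sum they were 17 in dividing, 44 in fibroblast-like and 22 in NK cell-like cells. Without red blood cell-like sums they were 7 in cardiomyocyte-like, 30 in dividing, 34 in fibroblast-like, 12 in monocyte-like and 26 in NK cell-like cells. Leaving out each library gave 80 to 81 in B cell-like, 71 to 80 in T cell-like, 40 to 80 in dendritic, 73 to 78 in neutrophil-like, 4 to 39 in endothelial, 1 to 75 in red blood cell-like, 0 to 51 in NK cell-like, 5 to 23 in cardiomyocyte-like, 2 to 18 in monocyte-like, 1 to 12 in dividing, 1 to 8 in fibroblast-like and 1 to 5 in macrophage-like cells. Members past the fold around their median were 1 in TAC-2w sections against the summed share. At 2-fold they were 0 in TAC-4w and 0 in TAC-6w sections, 2 in fibroblast-like, 1 in macrophage-like and 2 in B cell-like cells of TAC-6w and 0 in macrophage-like cells of TAC-4w. At a minimum of 50 UMIs they were 1 in fibroblast-like cells of TAC-2w and 1 in those of TAC-4w. Of 631 values for 65 named pairs of member and type, 529 kept direction and side, 102 lost the call and 0 changed sign. The cause of these changes was not tested. No paired analysis of conditions was possible because the labels give no replicate numbers that groups share. Types were compared within libraries through the library block.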
